A study of Mus musculus with 6 samples.

Results

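The expression of 9 genes of the Th17 programme was followed in mouse regulatory T cells (Tregs) labelled as knockout for the transcription factor Bcl11b: Rora, Il17a, Il17f, Il22, Il23r, Il1r1, Ccr6, Tmem176a and Tmem176b. They were chosen by gene symbol as known factors, cytokines and receptors of Th17 cells, and all 9 of 9 were found among the 24424 genes of the deposited count table and among the 23393 genes of a second, normalized table. The count table held 6 RNA sequencing libraries of mouse Tregs from secondary lymphoid organs, 2 in each of 3 groups. The WT group came from steady-state mice whose strain label reads Bcl11bF/F, with no Cre. The KO group at steady state and the KO EAE group both carried the strain label Bcl11bF/WT Foxp3YFP-Cre +/-, which names 1 floxed and 1 wild-type allele although the genotype label says KO. KO and KO EAE are used below as the names of the libraries so labelled. In such a strain Cre is expressed from the Foxp3 locus, so deletion is directed to Foxp3-expressing cells. EAE stands in this field for experimental autoimmune encephalomyelitis, an immunisation-induced model of multiple sclerosis. Only the KO groups carry the Foxp3YFP-Cre allele by their labels, so that allele and the Bcl11b genotype cannot be told apart between KO and WT. Immunisation and genotype cannot be told apart between KO EAE and WT, since WT mice with EAE are not analysed here. Ages, animals per library and the sort gate were not stated in the labels. No label states that replicates were separate animals or sorts, so p-values measure the spread between these libraries, which may be technical.

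Th17 cells are helper T cells that form under TGF-beta with interleukin-6 and are maintained by interleukin-23 and interleukin-1. Their identity depends on nuclear receptors of the ROR family, RORalpha (Rora) among them, and they secrete interleukin-17A, interleukin-17F and interleukin-22, which recruit neutrophils and protect epithelial barriers. Some Tregs share this equipment, since Foxp3-positive cells can express ROR factors and the homing receptor CCR6. The programme is also used by gamma delta T cells and innate lymphoid cells, and Tmem176a and Tmem176b are active in myeloid cells too.

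ROR factors bind a core motif, AGGTCA, usually after an A- and T-rich stretch. The 250 bases before each RefSeq start site (GRCm38.p6) were searched on both strands for AGGTCA and for TTCNNNGAA, the spaced palindrome that STAT factors recognise. AGGTCA was present upstream of 4 of the 9 genes, Il17a, Il17f, Il23r and Ccr6, in 4 of their 14 windows, and in 14% of all 32851 windows of that length. TTCNNNGAA was present upstream of Ccr6 alone among the 9, and in 7.02% of all windows. The windows of Il17a, Il23r and Ccr6 are shown because they hold AGGTCA and no annotated exon of these genes. They are chr1:20730655-20730904 on the plus strand for Il17a, chr6:67491856-67492105 on the minus strand for Il23r and chr17:8235793-8236042 on the plus strand for Ccr6, which has a second start site without either motif. Each is written 5′ to 3′ along the gene, and capitals mark the matches (TGACCT is AGGTCA on the other strand).
Il17a: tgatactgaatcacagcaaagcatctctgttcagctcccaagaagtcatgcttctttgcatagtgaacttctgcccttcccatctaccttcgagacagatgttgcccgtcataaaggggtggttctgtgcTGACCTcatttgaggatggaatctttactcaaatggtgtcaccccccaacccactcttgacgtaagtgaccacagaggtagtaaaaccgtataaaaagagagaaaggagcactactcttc
Il23r: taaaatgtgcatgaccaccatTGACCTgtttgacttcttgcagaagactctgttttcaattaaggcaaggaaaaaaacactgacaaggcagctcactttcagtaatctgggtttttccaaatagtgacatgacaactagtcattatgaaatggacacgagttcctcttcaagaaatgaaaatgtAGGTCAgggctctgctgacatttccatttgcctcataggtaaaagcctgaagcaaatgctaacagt
Ccr6: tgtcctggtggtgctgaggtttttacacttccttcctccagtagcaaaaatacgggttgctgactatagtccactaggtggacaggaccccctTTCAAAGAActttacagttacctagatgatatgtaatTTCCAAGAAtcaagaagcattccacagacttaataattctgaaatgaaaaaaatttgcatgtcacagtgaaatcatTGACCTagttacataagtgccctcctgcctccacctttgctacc
The Il17a match began 120 bases before the start site. A match describes the letters of the window and no binding was measured.

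The libraries held 14663542 to 16904312 reads each. Levels are given as counts-per-million (CPM) after TMM scaling, and 3 reads, taken as the floor for counting error alone, corresponded to 0.17 to 0.205 CPM. Bcl11b itself was read at 420 and 425 CPM in WT, 371 and 370 CPM in KO, and 404 and 278 CPM in KO EAE. No difference between KO and WT was called (log2 change -0.19 ± 0.17, SE; adjusted p = 0.527), and a count over the whole gene cannot isolate a floxed part that the labels do not name. For Bcl11b the WT and KO libraries did not overlap, KO being the lower. Foxp3 was at 211 and 206 CPM in WT and at 165 and 155 CPM in KO (log2 change -0.38 ± 0.08, adjusted p = 0.0254; 0.106 to 0.185 with any 1 of the 4 libraries left out). Foxp3, Il2ra, Ctla4, Ikzf2, Tnfrsf18, Cd4, Cd3e and Cd3g, which mark Tregs and T cells, were read in every library, with a summed level of 1881 and 1960 CPM in WT, 1380 and 1422 CPM in KO, and 1387 and 1502 CPM in KO EAE. Of these 8 markers, 5 were called lower in KO than in WT and none higher, against 3.46% and 9.41% of all genes tested. They were Foxp3, Il2ra, Ctla4, Ikzf2 and Tnfrsf18. Cd4, Cd3e and Cd3g were not called (log2 changes of 0.04, -0.02 and -0.06). Myeloid markers stood apart between groups. Of 12 myeloid markers 11 were called higher in KO than in WT, and their summed level was 293 and 304 CPM in WT, 1833 and 2177 CPM in KO, and 1646 and 1895 CPM in KO EAE. In bulk libraries, more cells of a type and more RNA per cell cannot be told apart.

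In the libraries labelled KO at steady state, the paired membrane protein genes Tmem176a and Tmem176b were called higher than in WT, about 2.92-fold and 2.59-fold. Il17a, Il23r and Il1r1 were 3.26- to 3.74-fold higher on average without passing the threshold, and Rora, Il22, Il17f and Ccr6 were not called either. Without KO replicate 2 the log2 change was 0.88 for Il17a and 1.09 for Il23r. In KO EAE libraries Il17a also passed, at 9.53-fold the WT level. Calls rest on edgeR's quasi-likelihood test over 14548 genes with Benjamini-Hochberg adjustment and a threshold of 0.05. From WT to KO, 2 of 9 members rose and none fell, while 9.41% of all genes tested rose and 3.46% fell (12.9% in all). The median log2 change was 1.55 over the 9 members and -0.01 over all genes tested. Both KO libraries lay above both WT libraries for 5 of the 9, against 32.7% of all genes, and no member had both KO libraries below WT (32.5% of all genes).

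**Figure D1:**
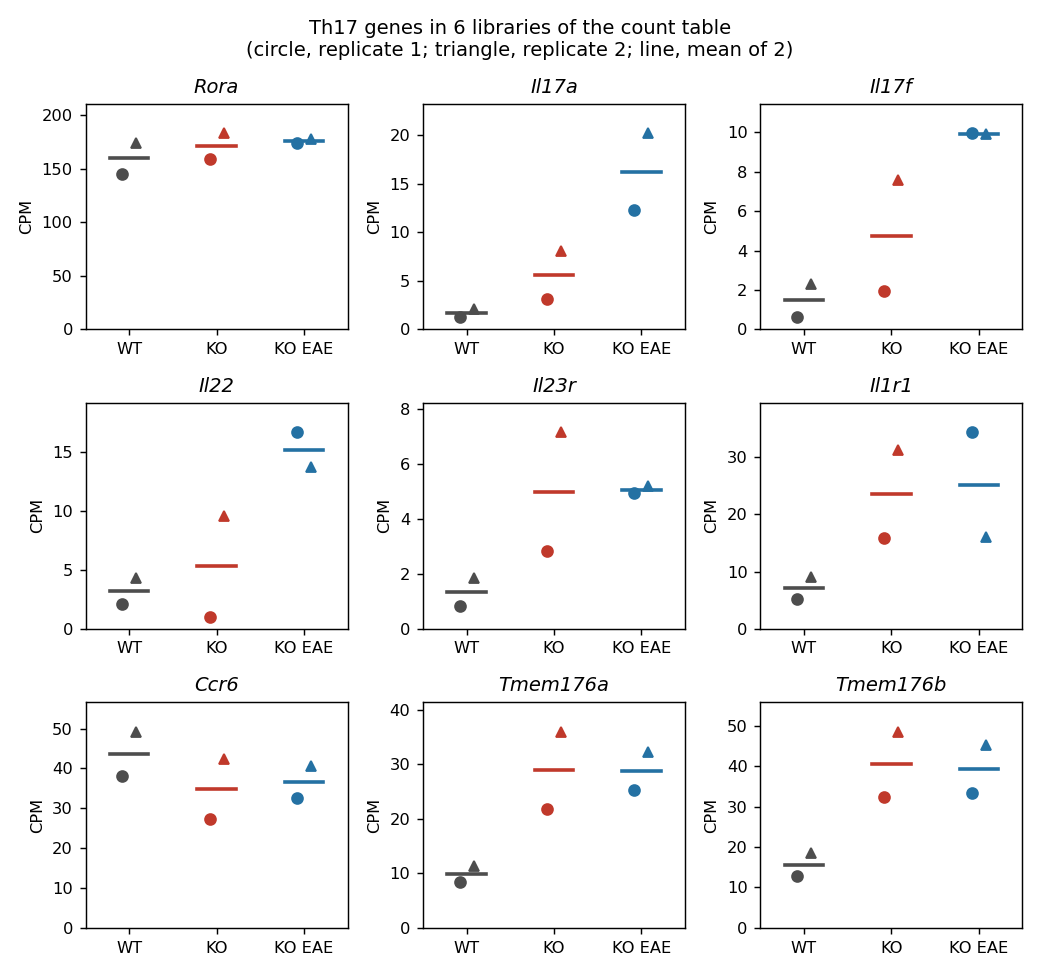
Level of each of the 9 genes in counts-per-million (CPM, linear axis from 0) in the 6 libraries of the count table; circles are replicate 1, triangles replicate 2 and lines the mean of 2. Il17a, Il23r, Il1r1, Tmem176a and Tmem176b separate WT from both KO groups, and Il17a, Il17f and Il22 are highest in KO EAE. Rora and Ccr6 overlap between groups.

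Among transcription factors, Rora showed no call in any comparison. It lies on chromosome 9 at 68653786 to 69388246 (mm10) and encodes RORalpha, a nuclear receptor that promotes Th17 differentiation. Rora was at 145 and 174 CPM in WT, 159 and 183 CPM in KO, and 174 and 178 CPM in KO EAE. The groups overlapped, with a log2 change of 0.10 ± 0.11 from WT to KO (adjusted p = 0.613) and 0.14 ± 0.11 from WT to KO EAE (adjusted p = 0.481). Without WT replicate 1 or KO replicate 2 the change from WT to KO turned to -0.012 and -0.0023. The span of the antisense gene Gm15511 overlaps that of Rora, and reads in any shared exon cannot be told apart without strand. Whether the pair shares exons was not examined.

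The 3 effector cytokines had low levels in WT, intermediate mean levels in KO and the highest in KO EAE, with wide scatter in KO. Il17a encodes interleukin-17A, the founding cytokine of the programme, and lies on chromosome 1 at 20730905 to 20734496 (mm10). It had 1.31 and 2.08 CPM in WT (21 and 34 reads), 3.12 and 8.05 CPM in KO (55 and 118 reads), and 12.3 and 20.2 CPM in KO EAE (191 and 315 reads). No 2 of the 3 groups overlapped for this gene. The log2 change was 1.71 ± 0.55 from WT to KO (adjusted p = 0.103), 1.55 ± 0.51 from KO to KO EAE (adjusted p = 0.508) and 3.25 ± 0.56 from WT to KO EAE (adjusted p = 0.0183). The last of these was the one called change of Il17a. It kept its call without either KO EAE library (adjusted p = 0.0106 and 0.0445) and lost it without WT replicate 1 (adjusted p = 0.12) or WT replicate 2 (adjusted p = 0.0719).

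Il17f, the neighbouring relative of Il17a on chromosome 1 (20777146 to 20790617), encodes interleukin-17F, which can pair with interleukin-17A. It had 0.626 and 2.33 CPM in WT, 1.93 and 7.57 CPM in KO, and 9.96 and 9.90 CPM in KO EAE. KO replicate 1 fell within the WT range, whereas both KO EAE libraries lay above all others. The change from WT to KO was 1.67 ± 0.79 on the log2 scale (adjusted p = 0.23) and that from WT to KO EAE 2.74 ± 0.80 (adjusted p = 0.093). Without KO replicate 2 the first of these was 0.38 (adjusted p = 0.815).

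Il22 encodes a cytokine of the interleukin-10 family that acts on epithelial cells, and lies on chromosome 10 at 118204942 to 118210047. Its level was 2.13 and 4.29 CPM in WT, 1.02 and 9.62 CPM in KO, and 16.7 and 13.8 CPM in KO EAE. KO replicate 1 held the lowest value of all 6 libraries and KO replicate 2 exceeded both WT libraries, a 9.42-fold gap between replicates. The direction of the KO difference depended on replicate 2: KO against WT gave a log2 change of 0.71 ± 0.91 (adjusted p = 0.657), and of -1.64 without KO replicate 2 (adjusted p = 0.203). From WT to KO EAE it was 2.24 ± 0.91 (adjusted p = 0.187).

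The cytokine receptors that sustain Th17 cells were higher in KO libraries without a call in the fit of all 6 libraries. Il23r encodes the specific chain of the interleukin-23 receptor, on chromosome 6 at 67422932 to 67491855. It had 0.813 and 1.84 CPM in WT, 2.84 and 7.17 CPM in KO, and 4.95 and 5.21 CPM in KO EAE. Every KO and KO EAE library was above both WT libraries, and the log2 change was 1.90 ± 0.58 to KO (adjusted p = 0.0897) and 1.93 ± 0.58 to KO EAE (adjusted p = 0.1). Il1r1 encodes the signalling receptor for interleukin-1, on chromosome 1 at 40225080 to 40317257. Its level was 5.19 and 9.12 CPM in WT, 15.9 and 31.3 CPM in KO, and 34.4 and 16.1 CPM in KO EAE. All 4 KO and KO EAE libraries again exceeded WT, with log2 changes of 1.72 ± 0.51 (adjusted p = 0.0848) and 1.81 ± 0.51 (adjusted p = 0.0866). The first was called when KO and WT were fitted alone (adjusted p = 0.04), and the second without KO EAE replicate 2 (adjusted p = 0.0429). The span of the annotated gene Gm38070 overlaps that of Il1r1 on the same strand, so reads in any shared exon could belong to either. Whether they share exons was not examined.

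Ccr6, the receptor for the chemokine CCL20 that guides Th17 cells and some Tregs to mucosal sites, did not share this direction. It lies on chromosome 17 at 8236043 to 8257141. The level was at 38.2 and 49.2 CPM in WT, 27.2 and 42.3 CPM in KO, and 32.5 and 40.6 CPM in KO EAE. The groups overlapped (log2 change -0.33 ± 0.24 from WT to KO, adjusted p = 0.43, and -0.26 ± 0.24 from WT to KO EAE, adjusted p = 0.546). B cells also express Ccr6. The summed level of 9 B cell markers was 48.2 and 43.2 CPM in WT, 109 and 161 CPM in KO, and 86.8 and 166 CPM in KO EAE, with 2 of 9 called higher in KO, Cd22 and Blnk. Their part in the Ccr6 level was not tested.

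Tmem176a and Tmem176b encode related membrane proteins that are found in Th17 cells and also in dendritic cells and macrophages. Tmem176a had 8.32 and 11.4 CPM in WT, 21.7 and 36.0 CPM in KO, and 25.2 and 32.3 CPM in KO EAE. Tmem176b had 12.8 and 18.5 CPM in WT, 32.4 and 48.5 CPM in KO, and 33.3 and 45.3 CPM in KO EAE. For both genes every KO and KO EAE library lay above both WT libraries, and the 2 KO groups overlapped each other. From WT to KO the log2 change was 1.55 ± 0.30 for Tmem176a (adjusted p = 0.0222) and 1.37 ± 0.28 for Tmem176b (adjusted p = 0.0273). From WT to KO EAE it was 1.54 ± 0.30 (adjusted p = 0.0289) and 1.33 ± 0.28 (adjusted p = 0.0382). These calls were close to the threshold. With 1 library left out, Tmem176a was called in KO only without KO replicate 1 (adjusted p = 0.0278, against 0.06, 0.107 and 0.13 without the others) and Tmem176b in none of the 4 fits (0.0501, 0.0514, 0.14 and 0.147). In KO EAE both were called without KO EAE replicate 1 (0.0188 and 0.0189) and in no other such fit (0.0646 to 0.182), and Tmem176b was not called when KO EAE and WT were fitted alone (0.0774).

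The 2 genes lie head to head on chromosome 6, Tmem176a at 48840919 to 48847071 on the plus strand and Tmem176b at 48833818 to 48841496 on the minus strand. Their annotated spans share 578 bases, of which 81 are exonic in both. Because no strand setting is stated for the counting, reads in that overlap cannot be assigned to 1 of the 2 genes. Their profiles were alike, with a Pearson correlation of log2(CPM + 1) of 0.996 over the 6 libraries.

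**Figure D2:**
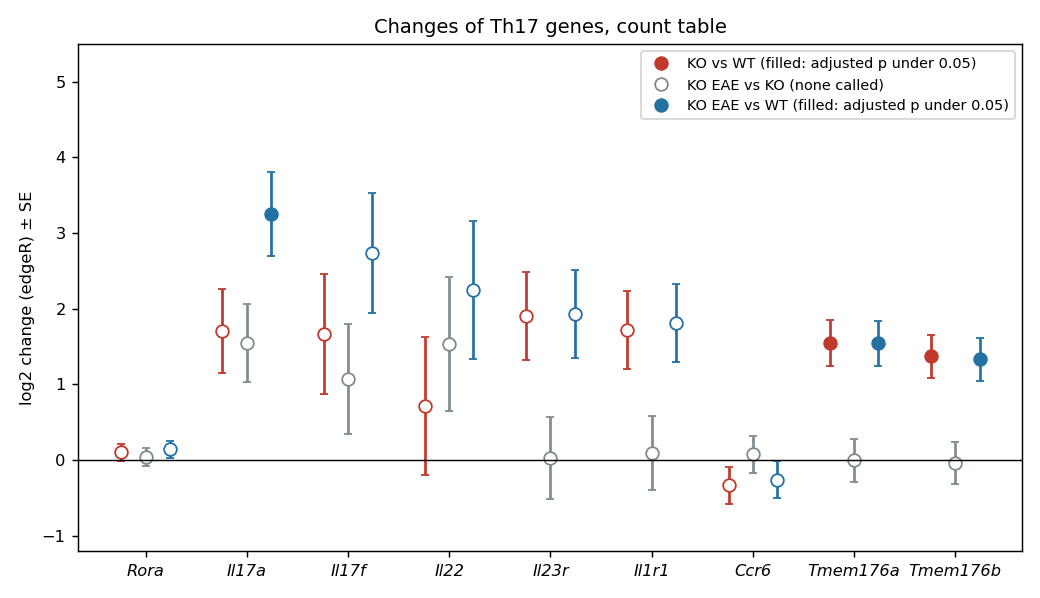
Log2 change of each gene (vertical axis, edgeR, error bars ± SE) from WT to KO, KO to KO EAE and WT to KO EAE; filled circles passed an adjusted p under 0.05. Tmem176a and Tmem176b passed against WT in both KO groups, at 1.33 to 1.55, Il17a passed from WT to KO EAE at 3.25, and no gene passed from KO to KO EAE.

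Summed markers of several cell types outside the Treg lineage were higher in KO than in WT, as were Tmem176a and Tmem176b. The sums for innate lymphoid cells and for stromal and endothelial cells overlapped between KO and WT. The 8 dendritic cell markers summed to 32.4 and 36.5 CPM in WT, 383 and 494 CPM in KO, and 302 and 361 CPM in KO EAE, and 3 of 8 were called higher in KO, Itgax, Sirpa and Clec9a. Csf1r, the receptor of the macrophage growth factor and the most abundant of the 12 myeloid markers in KO, was at 48.1 and 58.7 CPM in WT and 325 and 395 CPM in KO. No myeloid or dendritic cell marker was at 0 in all libraries. Of the gamma delta T cell list, 3 of 7 genes were matched by symbol, and their sum was 3.38 and 4.65 CPM in WT, 8.46 and 18.2 CPM in KO, and 7.32 and 9.13 CPM in KO EAE. Among these Cd163l1, a scavenger receptor of interleukin-17-producing gamma delta T cells, was called in KO at 1.56 and 1.53 CPM in WT against 4.09 and 10.2 CPM in KO (log2 change 2.2 ± 0.52, adjusted p = 0.0436). Sox13, a factor of the same cells, was at 1.0 and 1.53 CPM in WT and 1.02 and 1.71 CPM in KO. Of 7 NK cell markers tested 4 were called higher in KO, with sums of 82.8 and 71.0 CPM in WT, 191 and 182 CPM in KO, and 142 and 236 CPM in KO EAE, and Klra8 was at 0 in every library. Mast cell and basophil markers summed to at most 11.8 CPM in any library, and 1 of 4 tested was called in KO, Ms4a2. Genes of innate lymphoid cells summed to 622 and 673 CPM in WT and 632 and 752 CPM in KO, with Kit and Id2 called higher and Areg lower among 8. Most of that sum came from Il7r (221 and 255 CPM in WT) and Gata3 (188 and 192 CPM). Stromal and endothelial markers summed to 194 to 210 CPM in every library, and 1 of 6 tested was called in KO, Pdgfrb. Pecam1 alone was at 181 to 204 CPM, so that sum says little of the other genes in the list. The part of any of these cells in the Th17 transcripts was not tested.

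**Figure D3:**
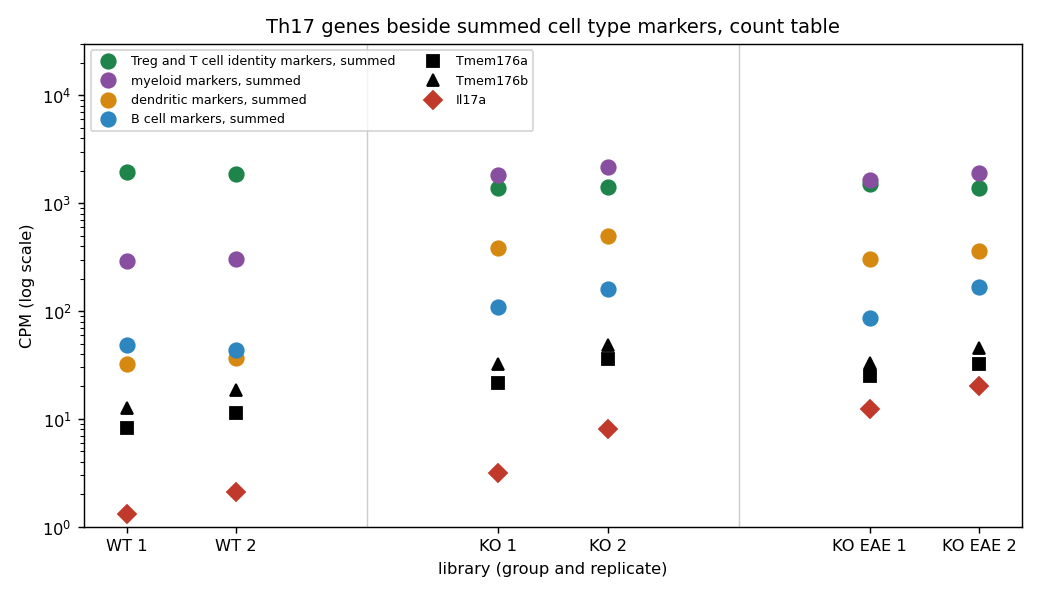
Level in CPM (log axis) of Tmem176a, Tmem176b and Il17a and the summed level of 4 marker lists in each library, with groups divided by grey lines. Myeloid and dendritic cell sums are higher in all 4 KO and KO EAE libraries than in WT (1646 to 2177 against 293 and 304 CPM for myeloid markers), as are Tmem176a and Tmem176b.

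EAE was compared with steady state within the KO genotype. Il17a, Il17f and Il22 had both KO EAE libraries above both KO libraries, 3 of 9 members against 17% of all genes tested, and none had both below (21.3%). Over all 14548 genes tested 2 were called, Nr4a3 and Dusp4 (0.0137% higher, 0% lower), and no member was among them. At an unadjusted p under 0.05 the edgeR test had 1 member, Il17a, and 1378 genes in all, and DESeq2 called 167 genes (1.24%, with 0.422% higher and 0.815% lower) and no member. The fold over KO was 2.92 for Il17a, 2.10 for Il17f and 2.89 for Il22, with log2 changes of 1.07 ± 0.73 for Il17f (adjusted p = 0.634) and 1.53 ± 0.88 for Il22 (adjusted p = 0.601). The other 6 members changed by -0.04 to 0.10 on the log2 scale. Their SE ran from 0.11 for Rora to 0.54 for Il23r. Without KO replicate 1 Il17f changed by 0.38, and without KO replicate 2 by 2.36. The same left-out libraries gave 1.0 and 2.38 for Il17a, and 0.65 and 3.89 for Il22.

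Set against WT, the KO EAE libraries had 3 of 9 members called higher and none lower, while 7.41% of all genes tested were called higher and 1.95% lower (9.36% in all). In all, 7 of the 9, all but Rora and Ccr6, had no overlap with WT, against 29.9% of all genes higher and 30.7% lower. The median log2 change of the 9 was 1.81, and that of all genes tested -0.01. The comparisons share the WT or KO libraries, so their values stand side by side and are not independent. DESeq2 on the same counts called 5 members from WT to KO, adding Il17a, Il23r and Il1r1 (adjusted p = 0.0128, 0.0164 and 0.0028), where it called 11.8% of all genes higher and 5.01% lower (16.8% in all). From WT to KO EAE it called 6, adding Il17f (adjusted p = 0.0026), Il23r and Il1r1 to the 3 of edgeR, with 11.4% of all genes called higher and 4.44% lower (15.9% in all).

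**Figure D4:**
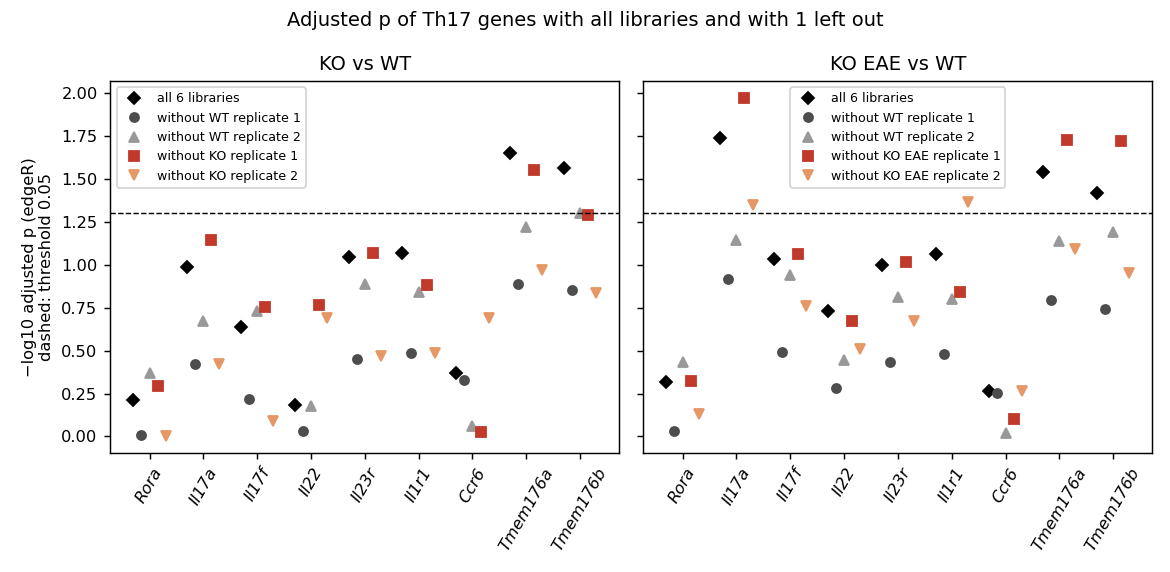
Adjusted p (edgeR, as −log10, dashed line at 0.05) of each gene from WT to KO (left) and from WT to KO EAE (right), with all 6 libraries and with 1 library of the compared groups left out. Tmem176b drops under the line in every KO fit with a library left out, and Il17a in KO EAE drops under it without either WT library (0.12 and 0.0719).

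Levels could be compared between genes after division by exon length. On that scale the mean level in WT was 18.8 CPM per kb for Ccr6, 12.2 for Rora and 6.59 for Tmem176b. It was 2.89 for Il22, 2.59 for Tmem176a, 1.45 for Il17a, 1.13 for Il1r1, 0.73 for Il17f and 0.533 for Il23r. Foxp3 stood at 45.5 on the same scale. Neighbours in this order whose WT libraries overlapped were Il22 and Tmem176a, Il17a and Il1r1, Il1r1 and Il17f, and Il17f and Il23r. In KO EAE Il17a (10.5 and 17.3 CPM per kb) and Il22 (15 and 12.4) reached the range of Rora (13.3 and 13.6), and Foxp3 was at 35.6 and 32.6.

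Scatter between replicates was shared by the members at steady state. Replicate 2 exceeded replicate 1 for 9 of 9 members in WT and for 9 of 9 in KO, where 48.9% and 53.4% of all genes tested did so. In KO EAE this was 6 of 9, against 48.5% of all genes. KO replicate 2 was 2.58-fold above replicate 1 for Il17a, 3.93-fold for Il17f, 2.52-fold for Il23r and 1.97-fold for Il1r1. Rora differed least of the 9. B cell markers were also higher in KO replicate 2 (161 against 109 CPM summed), and so were gamma delta T cell markers (18.2 against 8.46 CPM). Myeloid (2177 against 1833 CPM) and dendritic cell markers (494 against 383 CPM) were higher there too, and NK cell markers were lower (182 against 191 CPM). In WT replicate 2 the B cell and NK cell sums were lower (43.2 against 48.2 and 71.0 against 82.8 CPM). The gamma delta T cell, myeloid and dendritic cell sums were higher in that library. The part of these cells in the replicate difference was not tested.

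The profiles over 6 libraries most like each member, by Pearson correlation of log2(CPM + 1) among genes averaging at least 5 CPM, are given as a description. The candidates were 10542 genes (10543 for Il23r), and all points share the same 6 libraries. For Tmem176a they were Lilra6 (0.998), a myeloid receptor gene, Nmrk1 (0.998) and Tmem176b (0.996), and for Tmem176b they were Tmem176a (0.996), Lilra6 (0.996) and Nebl (0.994). Il17a was most like Polr2l, Elp4 and Tmem29 (0.996, 0.986 and 0.983), and Il17f most like Slc15a4, Cpd and Aebp2 (0.987, 0.977 and 0.977). Il1r1 was most like Tgfbr3, Rgmb and Lmo4 (0.990, 0.990 and 0.984), Il23r like Anxa5, Megf9 and Scp2 (0.988, 0.987 and 0.985), and Il22 like Mlf2, Baz1a and Ikzf1 (0.980, 0.974 and 0.973). Rora was nearest to Hsd11b1, Rps15a-ps4 and Aqp3 (0.996, 0.986 and 0.973), and Ccr6 to Dld, Lsp1 and Esd (0.983, 0.970 and 0.968). Among the members themselves Il23r correlated at 0.975 with Tmem176a and 0.924 with Il1r1, Il17a at 0.955 with Il17f, and Ccr6 at -0.26 to 0.38 with the other 8.

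Other genes of the Th17 pathway were mostly not called in KO. Of 54 tested genes from 6 lists (regulators, cytokines, receptors, signal transducers, interleukin-17 receptors and counter-regulators), 4 rose and 9 fell, with a median log2 change of -0.06 (9.41% and 3.46% of all genes). Among 17 regulators none rose and 3 fell. They were Irf4, a factor that Th17 cells and effector Tregs both need (159 and 172 CPM in WT, 102 and 104 in KO), Nfil3, a basic leucine zipper factor (119 and 124 against 34.5 and 53.2), and Ikzf3, which encodes Aiolos (273 and 273 against 213 and 218). Stat3, Batf, Ahr and Maf, all used in Th17 differentiation, were not called (log2 changes of -0.16, -0.07, -0.17 and 0.36). Of 5 cytokine genes tested Il21, an autocrine growth factor of Th17 and follicular helper cells, rose and Il10 and Lta fell. Il21 was at 1.94 and 1.71 CPM in WT, 43.7 and 25.1 CPM in KO and 42.7 and 32.1 CPM in KO EAE. Il10, an anti-inflammatory cytokine of Tregs, went from 29.8 and 38.6 CPM in WT to 11 and 10.5 in KO, and stood at 30.5 and 22 in KO EAE. Il9 did not pass the count filter. Among 11 receptors Cxcr6, a chemokine receptor of tissue T cells, rose to 92.4 ± 3.32 CPM from 22.2 ± 6.06 CPM in WT (mean ± SD, n = 2; log2 change 2.06 ± 0.18, edgeR adjusted p = 0.000939), and Tgfbr1, a TGF-beta receptor chain, fell by 0.38.

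Of 7 signal transducers Socs3, the inhibitor of interleukin-6 and STAT3 signals, fell by 0.39 on the log2 scale, from 223 and 234 to 165 and 182 CPM. None of 6 genes for interleukin-17 receptors and their adaptor was called. Among 8 counter-regulators of the programme, Tbx21 and Il2 rose and Foxp3 and Stat5a fell, Stat5a by 0.45 on the log2 scale. Ikzf3, Lta, Tgfbr1, Socs3 and Stat5a kept no call in the 4 fits that each omit a library, where the adjusted p reached 0.246, 0.247, 0.173, 0.185 and 0.164. Il10 lost its call in 2 of 4 such fits (up to 0.0613). In KO EAE against WT, 4 of the 54 rose and 4 fell: Il21, Cxcr6, Il2 and Tbx21, and Lta, Tgfbr1, Foxp3 and Stat5a. Of these, Lta, Tgfbr1, Foxp3 and Stat5a lost the call in 3 of 4 fits with a library left out (up to 0.21, 0.193, 0.184 and 0.218) and Il2 in 2 of 4 (up to 0.106). From KO to KO EAE none was called by edgeR. Irf4, Nfil3, Socs3 and Il10 were not called from WT to KO EAE (log2 changes of -0.15, -0.26, 0.05 and -0.38). The difference between those 2 comparisons is the KO to KO EAE comparison, where their adjusted p was 0.267, 0.34, 0.397 and 0.361. Myeloid markers, with a median log2 change of 2.60 from WT to KO, rose in the same libraries as Cxcr6, Il21 and Tbx21.

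The second deposited table holds WT and KO libraries at steady state under the same names but with other values, divided by size factors. From it 16884434 to 25335011 reads per library were recovered. Bcl11b was lower there in both KO libraries, at 6746 and 5211 against 10518 and 11371 in WT, without a call (log2 change -0.88 ± 0.14, limma adjusted p = 0.071). Of the Th17 pathway lists 53 genes were tested in that table and none was called, with a median log2 change of -0.11. Il10 and Nfil3, called lower in the count table (-1.67 and -1.47), had the other sign here (0.53 ± 0.66 and 0.13 ± 0.31). Il21 and Tbx21 changed by 0.21 each, against 4.23 and 2.34 in the count table. The other pathway genes called there kept their sign, among them Cxcr6 (1.81 ± 0.49), Il2 (3.45 ± 1.58) and Socs3 (-0.81 ± 0.12). Among them too, Foxp3, Lta and Tgfbr1 changed by less than their SE here (-0.07 ± 0.14, -0.07 ± 0.21 and -0.01 ± 0.16). In the count table they had changed by -0.38, -0.59 and -0.38. Il17a had 0 and 0 reads in WT and 14 and 4 in KO, Il17f 0 and 0 against 0 and 10, and Il22 0 and 0 against 13 and 1. Il23r was listed at 0 and 27 reads in WT and 0 and 20 in KO, and Il1r1 at 12 and 1 against 10 and 48. For Il17a and Il22 the order of the KO replicates was not that of the count table, where KO replicate 2 held more reads of both. Of the 9 members 6 passed the filter of a mean value of at least 5, and Il17a, Il17f and Il22 did not. By limma on log2(value + 1), none of the 6 was called, and of 12904 genes 0.0465% were called higher and 0.0232% lower (0.0697% in all). At an unadjusted p under 0.05 there was 1 member, Tmem176a, and 1635 genes in all, and edgeR on recovered reads called 12 genes (0.0979%, with 0.0653% higher and 0.0326% lower) and no member.

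Tmem176a kept its direction there, with values of 120 and 102 in WT and 194 and 229 in KO (log2 change 0.93 ± 0.39, adjusted p = 0.388). Tmem176b had 314 and 262 in WT and 419 and 389 in KO (0.49 ± 0.27, adjusted p = 0.485). For both genes the KO libraries again lay above WT, as for 23.2% of all genes in that table, against 21.8% with both below. Myeloid markers in that table summed to 7980 and 12873 in WT and 27377 and 24021 in KO, and dendritic cell markers to 854 and 1859 against 4184 and 3384. Rora had 738 and 986 against 726 and 595 (-0.38 ± 0.23, adjusted p = 0.519), and Ccr6 488 and 656 against 425 and 474 (-0.33 ± 0.25, adjusted p = 0.609). Il23r and Il1r1 changed by -0.36 ± 2.34 and 1.77 ± 1.52, errors too wide for a direction. Il1r1 had 1 to 48 reads per library there, against 83 to 459 in the count table, although each library held more reads in all.

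The authors' deposited table of KO against WT lists Tmem176a at a log2 fold change of 0.39 (DESeq2 adjusted p = 0.447), Tmem176b at 0.29 (adjusted p = 0.623), Rora at -0.28 (adjusted p = 0.597) and Ccr6 at -0.23 (adjusted p = 0.719). For Il17a, Il17f, Il22, Il23r and Il1r1 that table gives no adjusted p, and it lists log2 fold changes of -0.02 to 0.09. The mean levels listed there for Il17a (3.75) and Tmem176a (161) are the means of the normalized values, so it is no separate measurement. Il17a is listed at 0.04 ± 0.05, with normalized values of 0 and 0 in WT and 11.6 and 3.43 in KO. Small changes listed there therefore do not show equal levels. It calls 1.71% of 10396 genes with an adjusted p higher and 1.64% lower. Of the Th17 pathway genes it calls Il6ra (-0.77), Socs3 (-0.74), Tyk2 (-0.59), Hif1a (-0.41) and Il21r (-0.40) lower and Sgk1 (0.54) higher. Socs3 alone of these was called by edgeR in the count table. The log2 changes in the count table were -0.20 for Il6ra, 0.07 for Tyk2, -0.23 for Hif1a, -0.26 for Il21r and 0.06 for Sgk1. Bcl11b is listed in the authors' table at -0.80 (DESeq2 adjusted p = 7.9e-08).

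**Figure D5:**
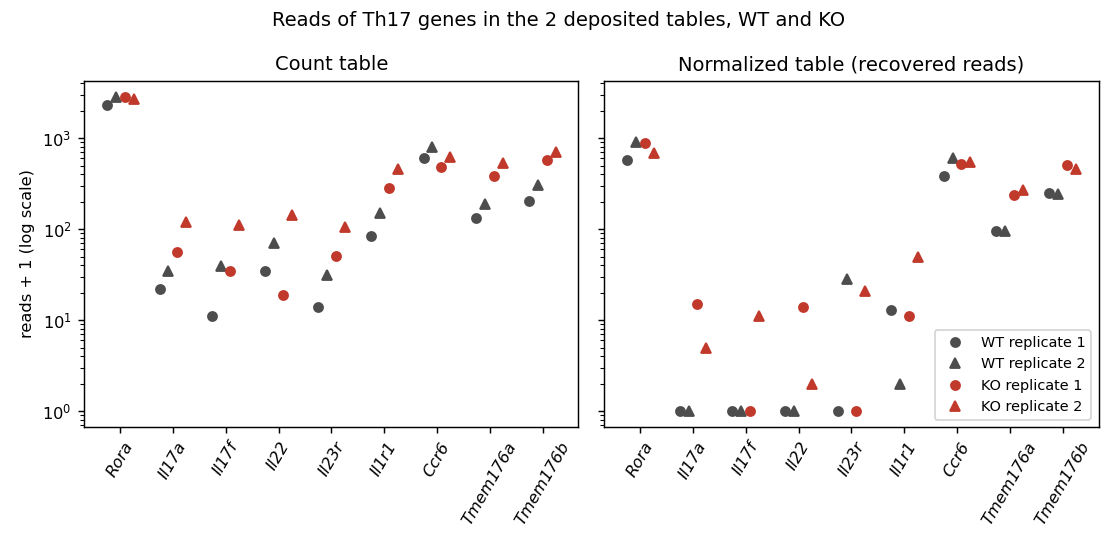
Reads plus 1 (log axis) of each gene in WT and KO libraries in the count table (left) and as recovered from the normalized table (right). Il17a, Il17f and Il22 had 10 to 141 reads per library on the left and 0 to 14 on the right, while the KO libraries lie above WT for Tmem176a and Tmem176b in both.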

How the data were processed

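Regulatory T cell RNA was sequenced on a NextSeq500 after library preparation with an NEBNext Ultra II kit, per the labels' protocols. HISAT2, HTSeq and DESeq2 with mm10 are named in the submitters' processing notes, with no version, annotation or strand setting stated. The authors deposited 3 tables, per the file headers: gene counts in whole reads for 6 libraries, a normalized signal (counts over a size factor) for 4 libraries, and KO against WT as log2 fold change, its error, score and raw or adjusted p-value. All values above 0 of the normalized table were whole multiples of 1 read (100% in each library, tolerance 0.02 reads).

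Samples were grouped by their titles. Rows named by a number or date (25 of 24449 and 27 of 23420, at most 0.217% and 0.284% of a library) name no gene and were left out. The count test used edgeR 4.0.16 under R 4.3.3 (filterByExpr with minimum count 10 and minimum total 15, TMM, glmQLFit and glmQLFTest, all 6 libraries with 1 coefficient per group and 3 residual degrees of freedom, biological coefficient of variation 0.178). The SE beside an edgeR change is approximate: the size of the log2 change over the root of F. The normalized table was tested with limma 3.58.1 on log2(value + 1) for genes with a mean value of at least 5. Alternatives, DESeq2 1.42.0 among them, are in the closing section. Both tests were run on simulated data with a single spread for all genes and changes placed only in genes above a minimum level. That is no check for genes with few reads. Replicates differed by more than sampling noise (chi-square per degree of freedom 16.5 to 32 in the count table). Gene positions are from GENCODE M21 (GRCm38, mm10) by symbol, 1-based, and upstream sequences from RefSeq (GRCm38.p6), matched for all 9 members.

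Members, lists and tests were chosen with earlier results of these data known. Named genes are Bcl11b, Foxp3, all 9 members, called genes of the Th17 pathway lists, and for each member averaging at least 1 CPM the 3 genes with the highest correlation (predicted Gm and Rik genes and antigen receptor segments left out); Stat3, Batf, Ahr, Maf, Il9, Nr4a3, Dusp4 and single marker genes were named after their values were seen.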

Additional observations from a re-analysis of the deposited data

How the results depend on the processing

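With 2 libraries per group, calls near the threshold depend on each library. Of the members, 5 (DESeq2) and 0 to 1 (1 library left out) were called from WT to KO against 2, and 6 and 0 to 3 from WT to KO EAE against 3. With the 2 groups alone 3 were called from WT to KO, Il1r1 added (adjusted p = 0.04), and 2 from WT to KO EAE. From KO to KO EAE, and in the normalized table, no member was called under any setting run. Over all genes, fitting the 2 groups alone gave 3121 calls for KO against WT, 782 for KO EAE against WT and 0 for KO EAE against KO; DESeq2 gave 2213 for KO EAE against WT and 167 for KO EAE against KO. With 1 library left out the counts were 846 to 917, 603 to 3762 (highest without KO EAE replicate 1) and 0 to 313 (highest without KO EAE replicate 1), and 0 in the normalized table in each of 4 fits. That table gave 4 calls with a pseudocount of 0.5, 45 with a pseudocount of 5 and 1 with no filter, against 9.

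Same-numbered libraries did not deviate together in every pair (correlations 0.03 for WT and KO, -0.17 for WT and KO EAE, 0.21 for KO and KO EAE, and 0.04 in the normalized table). With 2 libraries per group these values cannot tell whether same-numbered libraries were handled together, and the main fits used no pairing. With the replicate block the calls were 1668, 0 and 1301 in the count table (KO against WT, KO EAE against KO, KO EAE against WT) and 131 in the normalized table, with 3, 0, 4 and 0 members; Il17a joined in KO (adjusted p = 0.0301) and Il17f in KO EAE (adjusted p = 0.0376).

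Signs turned in the cases below, none of them called (log2 changes over fits with 1 library left out). From WT to KO the range was -0.012 (without WT replicate 1) to 0.24 for Rora, which was -0.0023 without KO replicate 2, and -1.64 to 1.59 for Il22, lowest without KO replicate 2. From KO to KO EAE it was -0.069 to 0.15 for Rora, -0.51 to 0.84 for Il23r, -0.54 to 0.67 for Il1r1, -0.22 to 0.43 for Ccr6, -0.34 to 0.41 for Tmem176a, -0.31 to 0.28 for Tmem176b, -0.095 to 0.028 for Foxp3 and -0.41 to 0.12 for Bcl11b. Tmem176a was there at 0.025 with the replicate block and 0.012 with the 2 groups alone. In the normalized table the range was -2.82 to 2.09 for Il23r and -0.16 to 0.0062 for Foxp3. The cause was not tested.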
